A study of Solanum lycopersicum with 12 samples.

Results

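The difference between the aluminium (Al) response of slstop1 roots and that of wild type (WT) roots was measured for 15903 of the 35768 gene models of a tomato (Solanum lycopersicum) mRNA sequencing series. These genes were chosen by level alone, as those that reached 1 FPKM in 3 or more of the 12 libraries. FPKM scales the fragments of a gene by its transcript's length and by the total of the library. Roots came from 20-day-old plants in a solution of pH 4.7, in 4 groups of 3 biological replicates: slstop1 with 60 µM Al, slstop1 with 0 µM Al, WT with 60 µM Al and WT with 0 µM Al. The library titles mark the mutant as KO, without further detail of the mutation. The number of mutant lines, the cultivar, the length of the exposure and any pooling of plants are not stated in the labels.

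STOP1 is a zinc finger transcription factor. In Arabidopsis it acts in roots at low pH and under Al, where it switches on the malate channel gene ALMT1 and other genes of Al tolerance, and malate released from the root binds Al ions in the soil solution. An interaction between genotype and Al is the difference of 2 differences: the change with Al in slstop1 minus the change with Al in WT, each on the log2(FPKM + 1) scale. A negative interaction means a lower response in slstop1, which can be a smaller rise, a deeper fall, or a fall in place of a rise. On this scale the change of genes near 1 FPKM is understated.

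The deposited table lists Solyc identifiers without gene names, and the reference gene table at hand matched 0 of them. Genes are therefore given by identifier, with at most 2 for each kind of response, chromosome numbers were read from the identifiers, and the root label was not checked against marker genes. The targeted gene is given under the identifier published for SlSTOP1, Solyc11g017140.2 on chromosome 11. It had 29.1, 30.02 and 27.6 FPKM in slstop1 with Al and 39.8, 34.7 and 33.5 FPKM in slstop1 without Al. In WT it had 85.8, 80.8 and 88.6 FPKM with Al and 72.7, 79.2 and 56.0 FPKM without Al. The 6 slstop1 libraries all lay below the 6 WT libraries. The log2 difference between slstop1 and WT was -1.52 ± 0.14 with Al (SE, limma adjusted p = 0.000172) and -0.91 ± 0.14 without Al (adjusted p = 0.0319). Without Al the call did not hold in 11 of 26 alternatives, whose limma adjusted p ranged from 0.00389 to 0.178 over all 26. Among the 11 were the fits without any 1 library of slstop1 with or without Al, and without replicate 1 of WT with Al or replicate 1 or 2 of WT without Al. Its own interaction was -0.61 ± 0.19 and did not pass the test (adjusted p = 0.192, from 0.105 to 0.558 over the alternatives). A transcript can be kept when a gene is disrupted, so these levels do not describe the mutation.

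Few genes passed the test of a different Al response, although 66.8% of the tested genes changed with Al in slstop1 and 60.9% in WT, and most of those that passed had the lower response in slstop1. The interaction passed the test (limma, Benjamini-Hochberg adjusted p under 0.05) for 163 genes, 1.02% of those tested. The response was lower in slstop1 for 155 of them (0.975%) and higher for 8 (0.0503%). At an unadjusted limma p under 0.05 there were 2099 genes as deposited, 1853 lower and 246 higher. This lean to lower responses was smaller under the scalings of the libraries described below. At the same p there were 1164 lower and 724 higher with median-of-ratios scaling, and 933 lower and 826 higher with quantile normalisation. The 155 had a median interaction of -1.75 and ran from -5.01 to -0.79, against a median of -0.18 over all tested genes. The 8 had a median of 2.10 and ran from 1.25 to 4.19. The median response of the 155 was -2.81 in slstop1 and -0.67 in WT, where all tested genes had -0.46 in slstop1 and -0.27 in WT.

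**Figure D1:**
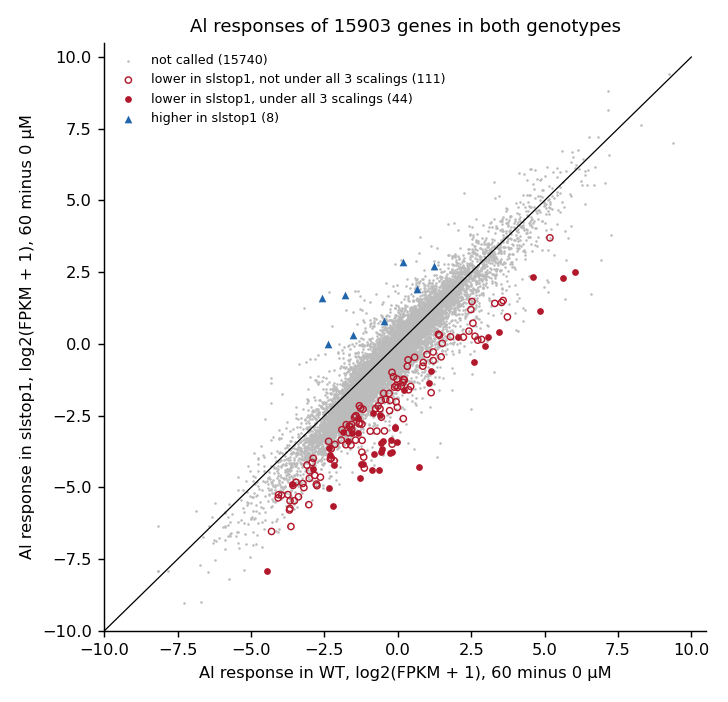
The Al response in slstop1 (vertical axis) is plotted against the Al response in WT (horizontal axis) for 15903 genes, both as differences of mean log2(FPKM + 1) between 60 and 0 µM Al; the line marks equal responses. Red circles are the 155 genes called with a lower response in slstop1, filled for the 44 called as deposited and also with median-of-ratios and quantile scaling, blue triangles are the 8 called with a higher one, and grey points are the genes not called.

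In the 155 genes the median levels of the genotypes were close without Al and apart with Al. Their median level was 3.08 FPKM in slstop1 with Al and 31.2 FPKM in slstop1 without Al. In WT it was 18.5 FPKM with Al and 30.9 FPKM without Al. The median log2 difference between slstop1 and WT was -1.61 with Al and 0.072 without Al. With Al in the solution, 152 of the 155 also passed the test between slstop1 and WT (9.24% of all tested genes were called there, 8.12% lower and 1.12% higher in slstop1). Without Al, 4 of the 155 passed it (0.176% of all tested genes were called, 0.107% lower and 0.0692% higher). For 101 of the 155, the slstop1 libraries lay below the WT libraries with Al and overlapped them without Al, a pattern held by 24.6% of all tested genes. Without Al the slstop1 libraries lay wholly below the WT libraries in 15 of the 155 (3.4% of all tested genes) and wholly above them in 39 (4.77% of all tested genes). The opposite pattern, slstop1 above WT with Al and overlapping without, was held by 4 of the 8, and by 6.95% of all tested genes. These comparisons use the same libraries as the interaction and are given side by side, not as separate evidence. The roots were measured in bulk, so fewer cells of a type and less RNA per cell cannot be told apart.

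The number of calls depended on single libraries. Leaving out slstop1 with Al gave 77 (replicate 1), 71 (replicate 2) and 138 (replicate 3). Leaving out slstop1 without Al gave 58 (replicate 1), 53 (replicate 2) and 53 (replicate 3). The count was 68, 239 and 142 without replicate 1, 2 or 3 of WT with Al. It was 79 and 117 without replicate 1 or 2 of WT without Al. Without replicate 3 of WT without Al it was 357, 303 lower and 54 higher. That library stood apart from its group, and WT without Al had the widest spread between replicates, with a median SD of 0.32 on the log2 scale against 0.15 in slstop1 with Al, 0.21 in slstop1 without Al and 0.26 in WT with Al. In each of these fits more genes were called lower than higher in slstop1. Of the 163 genes, 41 were called in all 12 fits that left out a single library, 40 of them lower in slstop1.

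Library scale was lower with Al than without in both genotypes. Whether its larger drop in slstop1 had a p under 0.05 depended on the measure and on single libraries. The scale of a library was taken as its median-of-ratios factor, which is the median over genes of the log2 ratio between the library and the geometric mean of all libraries. It was -0.25, -0.35 and -0.27 in slstop1 with Al and 0.19, 0.15 and 0.22 in slstop1 without Al. In WT it was -0.088, -0.088 and -0.049 with Al and 0.26, 0.29 and -0.0031 without Al. The slstop1 libraries with Al were the lowest of the 12, and the value of WT without Al that stood apart belonged to replicate 3. The response of the scale was -0.47 in slstop1 and -0.26 in WT, a difference of -0.22 that did not pass an exact permutation test of genotype labels within each Al dose (two-sided, p = 0.095, where 0.005 is the smallest the design allows). With the upper quartile of the tested genes as the measure the difference was -0.19 (p = 0.055, same exact test), and with the total outside the most abundant genes it was -0.064 (p = 0.045, same exact test). It was -0.12 (exact p = 0.31) when replicate 3 of WT without Al was left out, and -0.27 (exact p = 0.04) when replicate 2 of that group was left out.

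The most abundant genes held a larger share of the values under Al. The 267 genes that were among the 100 most abundant of any library held 39.9, 41.6 and 40.6% of the summed FPKM in slstop1 with Al and 30.2, 31.6 and 30.3% without Al. In WT they held 37.1, 36.7 and 37.2% with Al and 30.7, 31.1 and 30.3% without Al. FPKM divides by a library's total, so a larger share of these genes goes with lower values of the rest. How much of the negative interactions came with this shift was not tested.

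**Figure D2:**
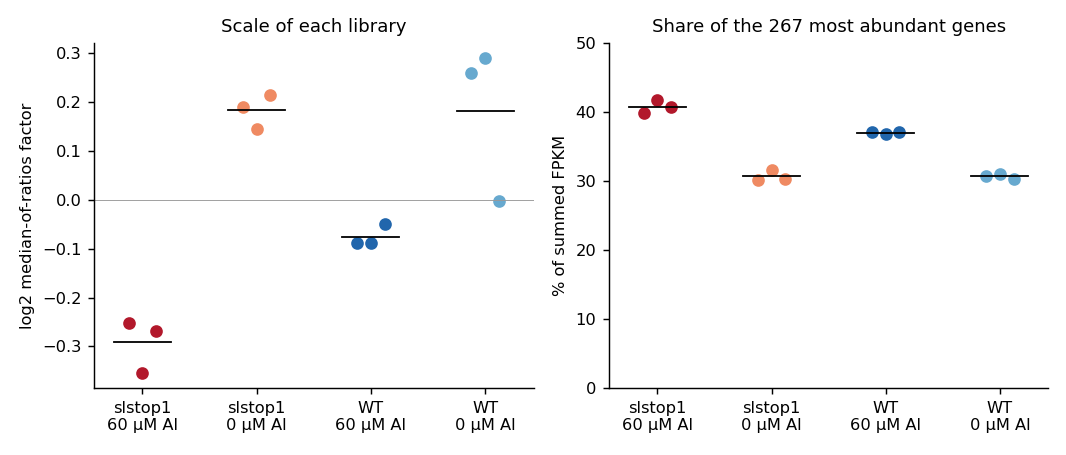
Each point is 1 library and each line the mean of 3, in the order slstop1 with 60 and 0 µM Al (red, orange) and WT with 60 and 0 µM Al (dark and light blue). The left plot gives the log2 median-of-ratios factor, lowest in the 3 slstop1 libraries with Al (-0.35 to -0.25), and the right plot the percentage of summed FPKM held by the 267 most abundant genes, highest in the same libraries (39.9 to 41.6%).

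Scaling took away calls with a lower response and added calls with a higher one. The median interaction of all tested genes was -0.18 as deposited, -0.027 with median-of-ratios scaling, -0.032 with a trimmed mean of log ratios, -0.045 with upper quartile scaling, -0.14 with the total of the genes outside the most abundant, and 0.044 with quantile normalisation. Median-of-ratios scaling gave 84 lower (0.528% of the tested genes) and 16 higher calls (0.101%) in slstop1, 0.629% in all. The trimmed mean gave 87 lower (0.547%) and 16 higher (0.101%), 0.648% in all. The upper quartile gave 86 lower (0.541%) and 13 higher (0.0817%), 0.623% in all. The total outside the most abundant genes gave 134 lower (0.843%) and 11 higher (0.0692%), 0.912% in all. Quantile normalisation gave 47 lower (0.296%) and 16 higher (0.101%), 0.396% in all. The share of lower calls was 95.1% as deposited, 84% with median-of-ratios scaling and 74.6% with quantile normalisation. These scalings centre the libraries on each other, so they remove a shift common to most genes whether it arose in the roots or in the measurement.

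**Figure D3:**
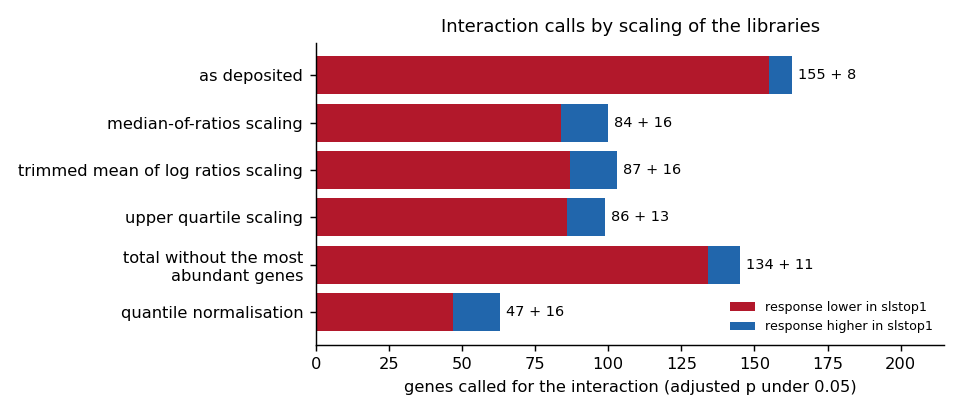
Bars count the genes called for the interaction (horizontal axis, adjusted p under 0.05) under each scaling of the libraries, red for a lower and blue for a higher response in slstop1. The lower calls run from 155 as deposited to 47 with quantile normalisation, and the higher calls from 8 to 16.

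The called genes were larger in size than the shifts that scaling brought, so their signs could not turn. The value closest to 0 among the 155 was -0.79 as deposited and -0.55 with quantile normalisation. A set of 52 genes, 44 lower and 8 higher, was called as deposited, with median-of-ratios scaling and with quantile normalisation. All but 1 of them were called under all 6 scalings. The 44 had a median interaction of -2.88, against -1.52 for the 111 lower genes outside the set. Their median level was 3.70 FPKM in slstop1 with Al and 44.3 FPKM in slstop1 without Al, and 34.5 FPKM in WT with Al and 45.7 FPKM in WT without Al. Of the genes called under all 6 scalings, 35 were also called without each single library, 34 lower and 1 higher.

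Genes that Al lowered in both genotypes fell further in slstop1. Called as falls in both genotypes were 5931 genes (45.5% of the tested genes fell in slstop1 and 39% in WT), with a median log2 change of -1.70 in slstop1 and -1.32 in WT. The fall was deeper in slstop1 for 84.6% of them. With median-of-ratios scaling 4739 genes fell in both, by a median of -1.63 in slstop1 and -1.32 in WT, and 79.9% fell further in slstop1. With quantile normalisation the medians were -1.57 in slstop1 and -1.35 in WT (4371 genes, 72.4% further in slstop1). Over all tested genes the interaction was below 0 in 67.8% as deposited, 52.3% with median-of-ratios scaling and 45.9% with quantile normalisation. The genotypes' responses share no library.

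Genes that Al raised in both genotypes had close median rises on the deposited scale and larger ones in slstop1 after scaling. Called as rises in both were 2904 genes (21.3% of the tested genes rose in slstop1 and 21.9% in WT), with a median of 1.43 in slstop1 and 1.41 in WT. The rise was larger in slstop1 for 54.1% of them. A larger rise in slstop1 is an interaction above 0. Of all tested genes 67.8% had one below 0 as deposited, 52.3% with median-of-ratios scaling and 45.9% with quantile normalisation. With median-of-ratios scaling the medians were 1.46 in slstop1 and 1.25 in WT (4079 genes, 73.2% larger in slstop1), and with quantile normalisation 1.46 in slstop1 and 1.25 in WT (4248 genes, 69.2% larger in slstop1). The tested genes are not independent replicates, and over them the slope of the major axis of the responses, slstop1 over WT, was 1.12 as deposited, 1.15 with median-of-ratios scaling and 1.11 with quantile normalisation.

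The interaction grew with the depth of the fall. Tested genes were binned by the mean of their slstop1 and WT responses, which is made from the same libraries as the interaction. Among 279 genes whose mean response was under -4 the median interaction was -0.89 as deposited, -0.83 with median-of-ratios scaling and -0.64 with quantile normalisation. Among 1668 genes between -4 and -2 it was -0.62, -0.50 and -0.36 in the same order, and among 2951 genes between -2 and -1 it was -0.39, -0.25 and -0.12. Genes whose mean response lay between -0.5 and 0.5 (4848) had -0.077, 0.11 and 0.15. They include genes that moved in opposite directions in the genotypes. Between 1 and 2 (1336 genes) the medians were 0.057, 0.26 and 0.23, and for the 190 genes at 4 or more -0.096, 0.13 and -0.014. The share of genes called with a lower response was 6.45% in the deepest bin and 0.227% in the bin from -0.5 to 0.5.

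**Figure D4:**
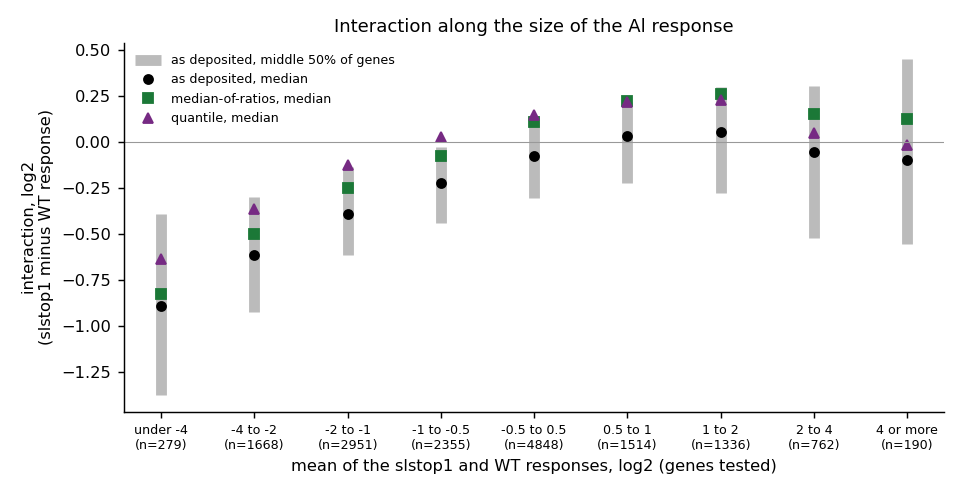
The median interaction (vertical axis, log2) is shown for genes binned by the mean of the slstop1 and WT responses (horizontal axis, log2), as deposited (black circles, with the middle 50% of genes in grey), with median-of-ratios scaling (green squares) and with quantile normalisation (purple triangles). All 3 are below 0 in the 3 bins of the strongest falls, from -0.89 to -0.64 in the lowest.

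The largest class of called genes fell in both genotypes and fell further in slstop1. It held 82 of the 155, which is 1.38% of all 5931 genes that fell in both, against 0.975% called lower over all tested genes. The 82 had median changes of -3.91 in slstop1 and -1.88 in WT. Their median level with Al was 2.97 FPKM in slstop1 and 12.2 FPKM in WT, and without Al 61.4 FPKM in slstop1 and 65.2 FPKM in WT. The class held 35 calls with median-of-ratios scaling and 21 with quantile normalisation. It held 136 with a pseudocount of 0.1 and 42 with a pseudocount of 5. With the replicate number as a block it held 32, and 15 with median-of-ratios scaling as well. It ran from 20 without replicate 3 of slstop1 without Al to 203 without replicate 3 of WT without Al, and it was 44 without replicate 2 of WT without Al. It also moved by over 1.5 times, to between 26 and 38, without replicate 1 or replicate 2 of either slstop1 group and without replicate 1 of either WT group. Of the 82, 21 belong to the 52.

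In this class Solyc04g010270.1 on chromosome 4 had 1.44, 2.25 and 2.25 FPKM in slstop1 with Al and 59.0, 79.2 and 47.3 FPKM in slstop1 without Al. In WT it had 31.9, 44.5 and 45.1 FPKM with Al and 67.03, 52.4 and 69.8 FPKM without Al. The slstop1 libraries with Al lay far below all others, and the genotypes overlapped without Al. The response was -4.38 ± 0.22 in slstop1 and -0.63 ± 0.22 in WT, which gave an interaction of -3.75 ± 0.31 (SE, limma adjusted p = 0.000422). Solyc12g089370.2 on chromosome 12 had 0.35, 0.66 and 0.44 FPKM in slstop1 with Al and 26.0, 41.1 and 26.3 FPKM in slstop1 without Al, against 15.8, 13.8 and 16.8 FPKM in WT with Al and 32.0, 26.3 and 29.4 FPKM in WT without Al. It was near 0 only in slstop1 with Al, and its interaction was -3.53 ± 0.27 (limma adjusted p = 0.000257). Both calls were kept in all 26 alternatives.

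Another 36 of the 155 fell in slstop1 without a call in WT, out of 1284 such genes (2.8%). Their median change was -2.12 in slstop1 and -0.11 in WT. With Al the median level was 2.10 FPKM in slstop1 and 17.5 FPKM in WT, and without Al 20.0 FPKM in slstop1 and 22.1 FPKM in WT. The number was 25 with median-of-ratios scaling and 13 with quantile normalisation, and over the single libraries left out it ran from 14 without replicate 2 of slstop1 without Al to 61 without replicate 2 of WT with Al. It was 23 and 21 without replicate 1 or replicate 2 of the slstop1 group with Al, 15 and 18 without replicate 1 or replicate 3 of the slstop1 group without Al, and 22 without replicate 1 of WT with Al.

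The most negative interaction of all called genes was in this class. Solyc10g083410.1 on chromosome 10 had 0, 1.02 and 5.36 FPKM in slstop1 with Al and 41.6, 53.1 and 40.0 FPKM in slstop1 without Al, against 45.3, 47.7 and 66.7 FPKM in WT with Al and 33.8, 26.0 and 34.9 FPKM in WT without Al. It was low in the 3 slstop1 libraries with Al and high in the other 9. Its interaction of -5.01 ± 0.71 (limma adjusted p = 0.0105) includes a library listed at 0 and ran from -6.46 to -3.53 over the alternatives. The call was lost with a pseudocount of 0.1 (adjusted p = 0.0613, from 0.000693 to 0.0613 over the alternatives). Solyc02g062510.3 on chromosome 2 had 0.6, 0.99 and 0.99 FPKM in slstop1 with Al and 23.0, 31.7 and 19.9 FPKM in slstop1 without Al. In WT it had 14.2, 21.5 and 23.1 FPKM with Al and 23.4, 21.6 and 21.1 FPKM without Al. Its change of -0.19 ± 0.21 in WT did not pass the test, and its interaction was -3.59 ± 0.30 (limma adjusted p = 0.000422).

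The remaining 37 of the 155 rose with Al in WT. They are 1.06% of the 3478 tested genes that rose there, close to the 0.975% of all tested genes called lower. Of the 37, 16 were not called in slstop1, 13 rose there less, and 8 fell there. The 16 had a median change of 0.19 in slstop1 and 2.33 in WT, the 13 had 1.44 in slstop1 and 3.59 in WT, and the 8 had -0.71 in slstop1 and 0.96 in WT. The classes they come from differ in size: 554 tested genes rose in WT without a call in slstop1, 2904 rose in both, and 20 rose in WT and fell in slstop1. The shares called lower were 2.89%, 0.448% and 40% in that order. The last class is made of opposite calls, so a lower response in slstop1 is part of its definition. In place of 37 such calls there were 24 with median-of-ratios scaling and 13 with quantile normalisation. The number was 8 without replicate 2, and 11 without replicate 1 or replicate 3, of slstop1 without Al. It was 14 and 13 without replicate 1 or replicate 2 of the slstop1 group with Al. It was 11 without replicate 1 and 66 without replicate 2 of WT with Al, and 21 without replicate 1 of WT without Al.

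Among the genes that rose in WT without a call in slstop1, Solyc04g011940.2 on chromosome 4 had 0.68, 0.13 and 1.47 FPKM in slstop1 with Al and 1.02, 1.11 and 3.16 FPKM in slstop1 without Al. In WT it had 10, 9.96 and 11.5 FPKM with Al and 0.9, 1.48 and 0.47 FPKM without Al. Only the WT libraries with Al stood high, and the interaction was -3.23 ± 0.48 (limma adjusted p = 0.0136). Solyc04g074440.1, also on chromosome 4, had 4.59, 1.91 and 3.23 FPKM in slstop1 with Al and 3.06, 4.54 and 2.56 FPKM in slstop1 without Al, against 37.4, 58.6 and 44.3 FPKM in WT with Al and 5.03, 5.46 and 4.46 FPKM in WT without Al. Its slstop1 libraries overlapped between doses while the WT libraries with Al stood apart, and its interaction was -3.05 ± 0.37 (limma adjusted p = 0.00411). Both calls were kept in all alternatives that tested the gene.

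Of the genes that rose in both, Solyc09g082300.3 on chromosome 9 had 3.5, 1.38 and 9.81 FPKM in slstop1 with Al and 0.83, 1.87 and 1.08 FPKM in slstop1 without Al. In WT it had 35.9, 35.8 and 36.2 FPKM with Al and 0.12, 0.61 and 0.18 FPKM without Al. The slstop1 libraries overlapped between doses, and the rise of 1.14 ± 0.43 in slstop1 stood against 4.85 ± 0.43 in WT (interaction -3.71 ± 0.61, limma adjusted p = 0.0201). Solyc03g005210.3 on chromosome 3 had 42.0, 36.8 and 121 FPKM in slstop1 with Al and 8.09, 9.21 and 10.51 FPKM in slstop1 without Al, against 339, 299 and 389 FPKM in WT with Al and 3.51, 7.22 and 2.89 FPKM in WT without Al. It rose by 2.51 ± 0.40 in slstop1 and by 6.02 ± 0.40 in WT (interaction -3.51 ± 0.57, limma adjusted p = 0.019), with replicate 3 of slstop1 with Al well above the other two in both genes. Without replicate 1 of slstop1 with Al, replicate 1, 2 or 3 of slstop1 without Al, replicate 1 of WT with Al or replicate 1 of WT without Al, both calls were lost, at adjusted p from 0.0505 to 0.0594, while the interaction kept its size (-3.85 to -3.53 for Solyc09g082300.3 and -3.59 to -3.29 for Solyc03g005210.3). Over all 26 alternatives the limma adjusted p ran from 0.00151 to 0.0849 for Solyc09g082300.3, and reached at most 0.0586 for Solyc03g005210.3.

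Among genes with a rise in WT and a fall in slstop1, Solyc01g097570.2 on chromosome 1 had 47.3, 59.7 and 56.8 FPKM in slstop1 with Al and 143, 147 and 139 FPKM in slstop1 without Al. In WT it had 282, 511 and 357 FPKM with Al and 248, 203 and 114 FPKM without Al. The libraries with Al were below those without in slstop1 and above them in WT (-1.38 ± 0.28 and 1.05 ± 0.28, interaction -2.43 ± 0.39, limma adjusted p = 0.0182). This call was lost without replicate 1 of slstop1 with Al or any 1 replicate of slstop1 without Al, at adjusted p from 0.052 to 0.0582 (limma, lowest of all alternatives 0.0123). Solyc04g074450.1, whose identifier follows that of Solyc04g074440.1, had 15.6, 12.1 and 16.2 FPKM in slstop1 with Al and 29.0, 35.7 and 22.5 FPKM in slstop1 without Al, against 112, 144 and 118 FPKM in WT with Al and 64.8, 55.1 and 50.8 FPKM in WT without Al. Here slstop1 was below WT in every library at both doses, and the interaction was -2.04 ± 0.26 (limma adjusted p = 0.00631), kept in all 26 alternatives. Neighbouring identifiers can be copies of 1 gene that share reads, and this was not analysed here.

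**Figure D5:**
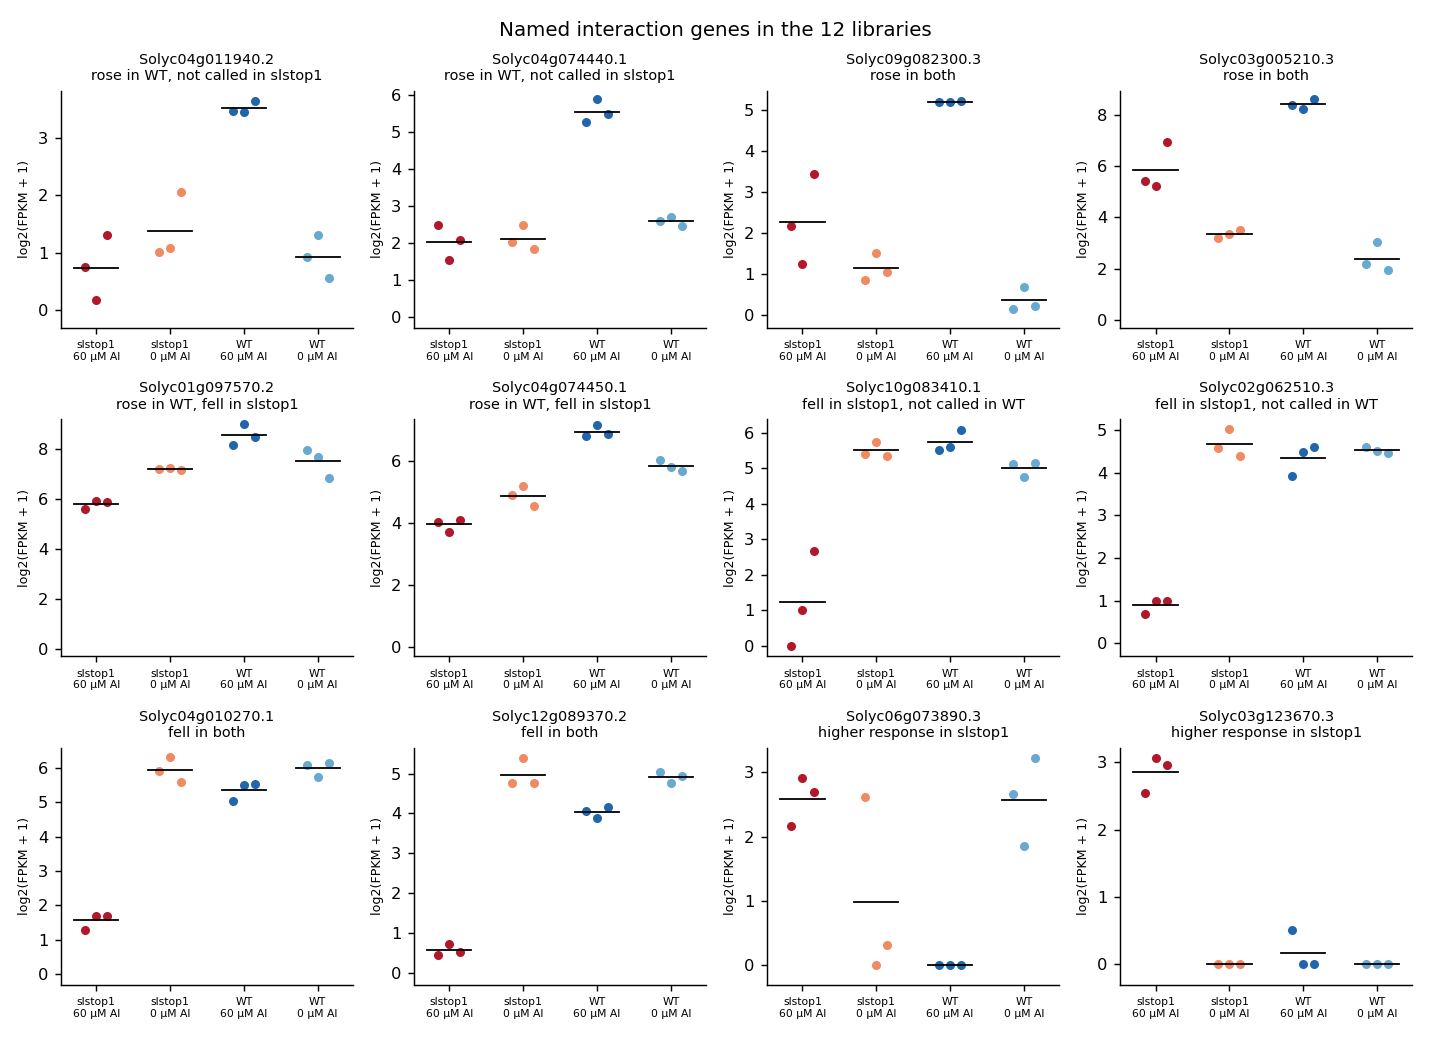
Each panel shows 1 gene named in the text, with its level in log2(FPKM + 1) on the vertical axis, a point for each library and a line for the mean of 3, in the order slstop1 with 60 and 0 µM Al (red, orange) and WT with 60 and 0 µM Al (dark and light blue). In the 10 panels of a lower response the slstop1 libraries with Al lie below the WT libraries with Al, and in the last 2 they lie above them.

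Only 8 genes had a higher response in slstop1, and most were low. Their median level was 3.98 FPKM in slstop1 with Al and 0.452 FPKM in slstop1 without Al, and 0.358 FPKM in WT with Al and 3.99 FPKM in WT without Al. Of the 8, 5 fell with Al in WT, 2 rose in both and 1 rose in slstop1 alone among the calls. Solyc03g123670.3 on chromosome 3 had 4.84, 7.33 and 6.78 FPKM in slstop1 with Al, 0.42, 0 and 0 FPKM in WT with Al, and was listed at 0 in the 6 libraries without Al. It reached 1 FPKM in the slstop1 libraries with Al alone, so it entered the test only through the group where it was high, and without any 1 of those libraries it was under the filter. Solyc06g073890.3 on chromosome 6 had 3.47, 6.57 and 5.47 FPKM in slstop1 with Al and 5.14, 0 and 0.25 FPKM in slstop1 without Al. All WT libraries with Al were at 0, and it had 5.31, 2.61 and 8.33 FPKM in WT without Al. Its slstop1 libraries overlapped between doses, and its call (limma adjusted p = 0.0413) did not hold in 15 of 25 alternatives (adjusted p from 0.00287 to 0.122 over the 25), 10 of which left out a single library (every library but replicate 1 of slstop1 without Al and replicate 2 of WT without Al). In 5 of the 8 genes at least 1 library was listed at 0, against 14 of the 155 and 2698 of all 15903 tested genes. A value of exactly 0 in FPKM can be a failed estimate.

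The share of called genes was higher among genes of higher level. Of 3028 genes with a mean under 2 FPKM 0.396% were called, and of 2754 genes from 2 to 5 FPKM 0.436%. The share was 1.17% of 5036 genes from 5 to 20 FPKM, 1.57% of 3698 genes from 20 to 100 FPKM and 1.59% of 1387 genes at 100 FPKM or more. The median SE of the interaction was 0.37 below 2 FPKM and 0.37 from 2 to 5 FPKM. It was 0.33 from 5 to 20 FPKM, 0.28 from 20 to 100 FPKM and 0.31 at 100 FPKM or more. The part of precision in these shares was not tested. All but 1 of the 8 higher calls had a mean of less than 20 FPKM, and 5 of them lay below 2 FPKM. At the edge of the filter, 523 genes reached 1 FPKM in exactly 3 libraries, with a median highest value of 1.85 FPKM. Of these 8 were called, against 163 of all 15903 tested genes. Another 695 reached 1 FPKM in exactly 2 libraries and were left out, with a median highest value of 1.63 FPKM. Where the 3 libraries are those of 1 group, as in Solyc03g123670.3, a gene entered the test only through the group where it was high. How many of the 8 did so was not counted.

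The size of an interaction and its call were different matters at 3 replicates. The interaction was -1 or lower in 1284 genes and 1 or higher in 296, and 150 and 8 of these were called. At a size of 2 there were 221 lower and 45 higher genes, of which 57 and 4 were called. At a size of 3 there were 49 and 8, of which 21 and 2 were called. The median SE over all tested genes was 0.33, and the smallest interaction called had a size of 0.79.

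The called genes lay on all 12 chromosomes, with 1 on the unplaced sequence that the identifiers number as chromosome 0. Chromosome 4 had the highest share, with 20 lower and 3 higher calls among 1316 tested genes (1.75%), and chromosome 8 the lowest, with 7 lower calls among 1171 (0.598%). Of the 52 genes called under the 3 scalings (0.327% of all tested genes), chromosome 4 held 10 (0.76% of its tested genes) and chromosome 3 held 10 (0.606% of its 1651). In any stretch of 20 tested genes in identifier order at most 3 were called, and 6 pairs of called genes were direct neighbours among the tested genes, 3 of them on chromosome 4.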

How the data were processed

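The authors deposited 1 table with an FPKM value for each gene model in each of 12 libraries. The table does not name its unit, and FPKM was inferred from its decimals and column sums. Per the submitters' processing notes, TopHat2, HISAT2, StringTie and Cufflinks were used, without versions or roles. The genome build is not given in the sources used here. All columns were used, and groups and replicate numbers came from the titles.

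Absolute depth is unknown. The spacing of low values gave a ratio of 1.45 between the largest and the smallest relative depth, and 55 of 66 library pairs fitted these depths to within 0.03 on the log2 scale.

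Values were transformed as log2(FPKM + 1) and fitted as 4 group means over 12 libraries, using limma 3.58.1 under R 4.3.3 (eBayes with trend, 8 residual degrees of freedom, two-sided, Benjamini-Hochberg adjustment over all 15903 genes). Errors of log2 values are limma's standard errors. The procedure was tested on simulated data. For the interaction, the simulation gave each gene the same spread in all groups and set no library apart. It does not cover the unequal spreads and the library that stood apart in these data. Scale factors were tested with exact permutation tests. Figures were drawn with matplotlib 3.10.9.

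Named genes were the 2 with the largest interaction in each response class among those called in the same direction as deposited, with median-of-ratios and with quantile scaling, with a group mean of at least 5 FPKM. Genes, classes and tests were chosen with earlier results of these data known. Gene lists by annotation were not analysed here, because no identifier was annotated. Alternatives were pseudocounts of 0.1 and 5, other filters, 5 scalings, other eBayes settings, the replicate number as a block, a minimum size of 1, and leaving out each library.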

Additional observations from a re-analysis of the deposited data

Results flagged for a closer look

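The Al response differed between slstop1 and WT, by the test of the interaction itself, for 163 genes. Among the named ones the interaction on the log2 scale was -3.23 for Solyc04g011940.2, -3.05 for Solyc04g074440.1, -3.71 for Solyc09g082300.3 and -3.51 for Solyc03g005210.3, which all rose in WT. It was -2.43 for Solyc01g097570.2 and -2.04 for Solyc04g074450.1, which moved in opposite directions. It was -5.01 for Solyc10g083410.1, -3.59 for Solyc02g062510.3, -3.75 for Solyc04g010270.1 and -3.53 for Solyc12g089370.2, which fell in slstop1. For Solyc06g073890.3 it was 4.19 and for Solyc03g123670.3 it was 2.69. Solyc03g123670.3 passed the filter only through slstop1 with Al, where it was high. These last sizes rest on groups listed at 0 and on the pseudocount, with a range over the alternatives of 1.67 to 8.80 for Solyc06g073890.3 and 1.13 to 5.19 for Solyc03g123670.3.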

How the results depend on the processing

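The count of 163 became 100 with median-of-ratios scaling, 103 with the trimmed mean, 99 with upper quartile scaling and 63 with quantile normalisation. Leaving out single libraries gave 53 to 357, and leaving out replicate 3 of WT without Al with median-of-ratios scaling gave 312 (223 lower, 89 higher). In all 27 alternatives more genes were called lower than higher in slstop1. The cause of the changes in count was not tested. The left-out fits also had fewer samples, and their counts lay both below and above 163. The median interaction of all tested genes was -0.26 with a pseudocount of 0.1, -0.0896 with a pseudocount of 5, -0.0790 without the filter, -0.0265 with median-of-ratios scaling (also with the block, and -0.0335 without replicate 3 of WT without Al), -0.0322 with the trimmed mean, -0.0453 with the upper quartile, 0.0444 with quantile normalisation, and -0.23 to -0.12 without single libraries. The difference in library scale was -0.0637 with the total outside the abundant genes (exact permutation p = 0.045) and -0.27 to -0.12 without single libraries. The difference of SlSTOP1 without Al, -0.91, kept its size without trend (limma adjusted p = 0.0555) and with the replicate block (0.0779), where it was not called, and was -1.06 to -0.81 without single libraries. With the replicate number as a block 69 genes were called, 38 with median-of-ratios scaling as well. No pairing by number was seen in the values: same-numbered libraries of different groups had correlated deviations over 0.1 in 0 of 18 pairs (-0.24 to 0.09). Likewise 0 libraries were closest to their own number. With 3 replicates per group this cannot show that the numbers mark no shared handling. Depth per library is unknown, so counting error cannot be set apart from replicate error.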
